A study of Homo sapiens with 48 samples.

Results

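Late RELA regions are places where RELA was called after 6 h of TNFα but not at the earlier time or without ligand. They were defined by the peak lists themselves: a region of the RELA list of 6 h TNFα, on chromosomes 1 to 22 and X, belonged to them when it shared not even 1 bp with the RELA list of 30 min TNFα, the RELA vehicle list or the RELB vehicle list. Of the 7266 RELA regions at 6 h, 1343 met this rule, 2719 were also called at 30 min and in neither vehicle list (sustained regions), and 3204 were called in a vehicle list. A further 5813 regions of the 30 min list were in no vehicle list and not in the 6 h list (transient regions). The late regions split into 641 outside tandem repeats and 702 in tandem repeats, where a tandem repeat means that the 1000 bp around the summit match themselves at 0.4 or more of their positions when shifted by up to 400 bp.

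All samples come from L3.6pl, an established human pancreatic ductal adenocarcinoma cell line, so every group is the same line and differs by ligand, time and antibody. Chromatin was precipitated for RELA, RELB and the acetylated histone mark H3K27ac in cells given PBS as vehicle, TNFα for 30 min or 6 h, or TWEAK for 30 min or 6 h, and for the AP-1 subunit FOSL1 in vehicle alone. How long the vehicle was applied is not given in the labels, so whether it matches the 30 min or the 6 h time in the comparisons with vehicle is unknown. Each of these 16 conditions had 3 replicates, and each list holds 1 set of peaks called on merged replicates, so no value below has a spread between replicates. The peak names of the RELA list of 30 min TNFα mention a first replicate beside the word for merged, and whether the list that decides which regions are late holds the reads of all 3 replicates is therefore open to doubt. Sequencing depth is unknown, intervals are exact 95% binomial intervals, and tests treat regions as units, so both describe these lists and not the cultures.

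RELA is the main activating subunit of canonical NF-κB. TNFα leads to the loss of IκB proteins, which frees RELA dimers to enter the nucleus within minutes and bind κB sites, and the induced IκBα then carries part of it out again. RELB is the activating subunit of the noncanonical pathway, which TWEAK engages more slowly. AP-1 dimers of FOS and JUN family proteins, FOSL1 among them, bind TGACTCA elements and occupy many enhancers of epithelial tumor cells, and H3K27ac marks active promoters and enhancers.

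Sequences of 5 late regions are shown because they hold the elements that the results turn on: 2 AP-1 elements with no κB match (ACHE, AMOTL2), a κB match with no AP-1 element (PTX3), both (H2BC11), and a stretch of a tandem array (ZNF37A). Each is the whole called region of build hg38, named by its nearest protein-coding start site, with matches to the NF-κB or AP-1 pattern spelled out below in capitals. The NF-κB pattern asks for A or T at its middle, and stretches that differ from it there are not counted as matches.
ACHE, chr7:100915190-100915411, plus strand: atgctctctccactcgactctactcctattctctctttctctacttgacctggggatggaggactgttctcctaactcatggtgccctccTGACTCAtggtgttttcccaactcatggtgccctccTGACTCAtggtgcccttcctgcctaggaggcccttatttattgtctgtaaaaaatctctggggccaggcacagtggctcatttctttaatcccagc
AMOTL2, chr3:134378833-134379086, plus strand: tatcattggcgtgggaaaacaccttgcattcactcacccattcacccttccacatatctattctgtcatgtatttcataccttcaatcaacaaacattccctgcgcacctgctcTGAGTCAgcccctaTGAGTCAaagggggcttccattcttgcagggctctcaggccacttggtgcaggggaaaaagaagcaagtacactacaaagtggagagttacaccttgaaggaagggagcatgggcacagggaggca
PTX3, chr3:157436688-157436833, plus strand: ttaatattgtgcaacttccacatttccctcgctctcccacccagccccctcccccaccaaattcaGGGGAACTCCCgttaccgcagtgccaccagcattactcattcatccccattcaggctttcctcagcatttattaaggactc
H2BC11, chr6:27031387-27031537, plus strand: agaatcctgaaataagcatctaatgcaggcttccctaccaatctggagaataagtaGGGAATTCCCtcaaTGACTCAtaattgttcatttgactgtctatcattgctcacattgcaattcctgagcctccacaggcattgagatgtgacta
ZNF37A, chr10:40183170-40183295, plus strand: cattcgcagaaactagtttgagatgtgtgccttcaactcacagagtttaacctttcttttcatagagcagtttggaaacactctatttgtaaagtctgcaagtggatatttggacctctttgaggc

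The values that chose the regions are given as a description, without a test. Outside tandem repeats the RELA fold enrichment over input of the late regions ran from 1.80 to 13.4 with a median of 5.03, against a median of 6.52 at the sustained regions at the same time and 5.50 at the transient regions at 30 min. In tandem repeats it ran from 1.72 to 8.62 with a median of 4.48. A fold of at least 5 was reached by 328 of 641 late regions outside tandem repeats and by 176 of 702 in them. Most late regions outside tandem repeats lay far from any peak of the 3 excluding lists: the median gap was 54.4 kb, 330 lay at least 50 kb away and 5 lay within 50 bp. Just inside the rule, a region near TNFRSF13B (chr17:16865229-16865357, fold 4.44) missed an excluding peak by 4 bp, 1 near KCTD19 (chr16:67311989-67312133, fold 4.88) by 18 bp and 1 near ARHGEF17 (chr11:73307426-73307534, fold 4.38) by 28 bp. Just outside it, sustained regions near NEMF (chr14:49868250-49868361, fold 3.61), ABO (chr9:133252048-133252202, fold 4.0) and IRF2BP2 (chr1:234657290-234657414, fold 5.40) overlapped by 10, 11 and 16 bp. Such edge cases were few, with 10 of 2553 sustained regions overlapping by under 50 bp.

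The 10 late regions of highest fold outside tandem repeats lay near genes of varied roles, and their other readouts fell into several kinds. The highest, at chr4:176841692-176841879, lay in intergenic sequence 48865 bp upstream of VEGFC, a lymphangiogenic growth factor, with a RELA fold of 13.4. It carried FOSL1 in vehicle (fold 9.01) and H3K27ac already in vehicle (fold 2.62), which stayed under TNFα (2.62 at 30 min, 2.79 at 6 h), and no RELB peak in any list. It was therefore a site of FOSL1 and acetylated chromatin before the ligand, with neither motif in the called region.

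The next region lay in an intron 22407 bp from the start of PSMB7, a proteasome subunit (chr9:124392930-124393203, RELA fold 10.6). RELB was called there at 6 h of TWEAK (fold 20.1) and of TNFα (fold 7.29), FOSL1 in vehicle (fold 11.5), and H3K27ac in vehicle (2.71) and at 6 h (3.15) but not at 30 min of TNFα. The region 46653 bp upstream of PICALM, a clathrin assembly protein (chr11:86116435-86116637, fold 10.5), had RELB at 6 h of TWEAK (fold 9.64), no FOSL1 in vehicle, and H3K27ac at 6 h of TNFα (3.07) and of TWEAK (2.97) alone. The region 18309 bp upstream of ACHE, which encodes acetylcholinesterase, had a RELA fold of 10.2. It carried H3K27ac at 6 h of TNFα (3.15) and of TWEAK (2.60), and no FOSL1, RELB or other RELA peak. Both PICALM and ACHE were thus unmarked in the vehicle and 30 min lists and marked at 6 h.

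The intronic region of ADGRA3, an adhesion G protein-coupled receptor (chr4:22501484-22501691, fold 10.2), held both motifs, FOSL1 in vehicle (fold 11.3), RELB at 6 h of TWEAK (fold 6.31) and H3K27ac in all 5 lists (2.93 to 3.22). The region 149920 bp upstream of SHH, a hedgehog ligand (chr7:155962273-155962481, fold 10.1), held a κB match, FOSL1 (fold 4.45), RELB at 6 h of TWEAK (fold 5.94) and H3K27ac in all 5 lists (3.05 to 3.59). By contrast, 4 of the 10 had no H3K27ac in any list. They included the regions 3508 bp upstream of AMOTL2, an angiomotin family protein (fold 10.1), in an intron near PDZRN4 (chr12:41363604-41363757, fold 10.1), and 101106 bp from H2BC11, a histone gene (fold 9.70). None of these 4 carried FOSL1 in vehicle. AMOTL2 was also called for RELA at 6 h of TWEAK (fold 4.68), PDZRN4 for RELA at 6 h of TWEAK (fold 7.15) and RELB at 6 h of TNFα (fold 7.94), and H2BC11 in no other list.

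Outside tandem repeats, late regions held fewer κB matches and more AP-1 elements than sustained regions. The AP-1 direction held there alone: over all late regions, repeats included, the AP-1 share was 15.9% against 20.4% of all sustained regions (Fisher's exact test, odds ratio 0.739, p = 5.63e-04), and within tandem repeats the odds ratio was 0.131. The NF-κB pattern (GGG, a purine, any base, A or T, a pair of pyrimidines, CC), searched on both strands in the 201 bp around the summit and counted also where it overlaps another element, was found in 221 of 641 late regions outside tandem repeats (34.5%, 30.8 to 38.3) and in 1568 of 2553 sustained regions (61.4%), against 56.0% of all RELA regions of 6 h outside tandem repeats (Fisher's exact test, two-sided, odds ratio 0.331, 0.274 to 0.398, adjusted p = 1.43e-33). The AP-1 element TGACTCA, on either strand, was found in 210 late regions (32.8%, 29.1 to 36.5) and 548 sustained regions (21.5%), against 23.7% of all RELA regions of 6 h (Fisher's exact test, odds ratio 1.78, 1.47 to 2.16, adjusted p = 1.04e-08). Adjusted p-values against sustained regions are adjusted over the 10 comparisons of late with sustained regions. Those against transient regions are adjusted separately over the same 10 readouts. The p-value given over all regions is unadjusted. Within quintiles of RELA fold the odds ratio of late against sustained regions was 0.523 for the κB pattern and 2.02 for the AP-1 element. In 201 bp windows on a regular grid of the genome outside tandem repeats, 1.51% held the κB pattern and 3.22% the AP-1 element, and in 47957 FOSL1 regions in no RELA or RELB list the shares were 2.21% and 43.2%.

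Transient regions differed from late regions in AP-1 share, while for the κB share no difference passed the test. Their κB share was 37.6%, an odds ratio of 0.873 (0.731 to 1.04) for late against transient regions that Fisher's exact test did not separate (adjusted p = 0.145). Their AP-1 share was 10.7%, and the odds ratio of late against transient regions was 4.07 (3.36 to 4.92, Fisher's exact test, adjusted p = 4.09e-43). Outside tandem repeats the AP-1 share was thus 10.7% where RELA was called at 30 min alone, 21.5% where it was called at both times and 32.8% where it was called at 6 h alone, an order that did not hold over all regions (9.89%, 20.4% and 15.9%). Comparisons with transient regions were chosen after the values were seen.

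Counted jointly, 153 late regions held the κB pattern alone, 142 the AP-1 element alone, 68 both, and 278 (43.4%) neither. At sustained regions 50.7% held the κB pattern alone and 10.8% the AP-1 element alone. The AP-1-only share of late regions was 22.2%, and the share with both was 10.6% in late and 10.7% in sustained regions. κB matches lay close to the late summits, at a median of 15.5 bp with 73.3% within 25 bp, while AP-1 elements lay at a median of 34.0 bp with 38.1% within 25 bp. Both distances were near those of sustained regions (13.5 and 35.0 bp).

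**Figure D1:**
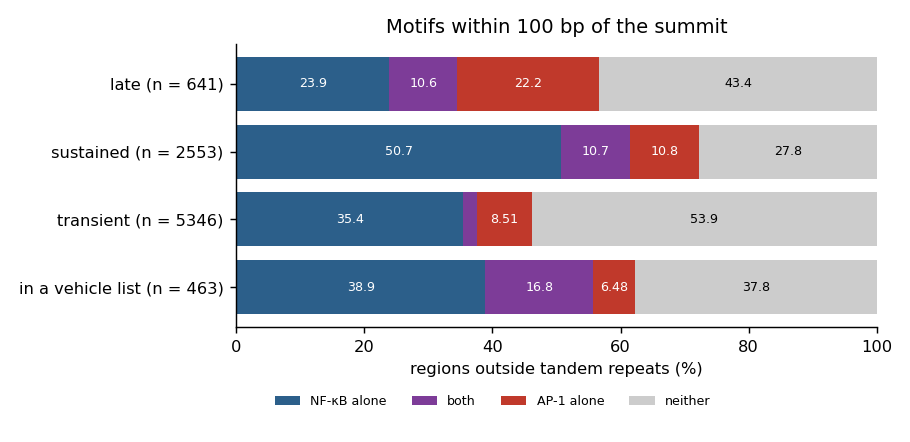
Stacked bars give the percent of regions outside tandem repeats with an NF-κB match alone, both motifs, an AP-1 element alone or neither, for late, sustained and transient regions and for 6 h regions called in a vehicle list. The AP-1-only part is 22.2% in late regions, 10.8% in sustained regions and 8.51% in transient regions.

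Of the 8 other elements counted on both strands, C/EBP (TTGCNNAA) was found in 7.02% of late, 12.2% of sustained and 14.3% of transient regions, and the SP/KLF element GGGCGG in 14.2%, 20.4% and 19.1%. The interferon-type element GAAANNGAA was at 9.83% in late, 6.97% in sustained and 7.48% in transient regions. The TEAD element CATTCC was at 16.1%, 13.7% and 16.1%. These shares were not tested, and in the genome grid they were 11.1% for C/EBP, 2.90% for SP/KLF, 7.94% for GAAANNGAA and 11.3% for CATTCC. ETS, FOX, RUNX and CRE elements were each in under 4% of late regions.

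FOSL1 was called in vehicle at 326 of 641 late regions outside tandem repeats (50.9%, 46.9 to 54.8) and at 1405 of 2553 sustained regions (55.0%), beside 57.5% of all RELA regions of 6 h. The difference from sustained regions did not pass the threshold (Fisher's exact test, odds ratio 0.846, 0.708 to 1.01, adjusted p = 0.0625), although the late regions held more AP-1 elements. The call for FOSL1 depended on the setting: late regions were lower, with an unadjusted p under 0.05, with a fold of at least 5 (odds ratio 0.583), within quintiles of RELA fold (0.692), at a self-match limit of 0.5 (0.824), over all regions (0.685) and in tandem repeats (0.362), while with summits within 100 bp the odds ratio was 1.02. Among late regions without FOSL1 in vehicle, 76 of 315 still held an AP-1 element (24.1%, 19.5 to 29.2), against 151 of 1148 such sustained regions (13.2%) and 134 of 3080 such transient regions (4.35%). Among late regions with FOSL1 the share was 41.1%, against 28.3% at sustained regions. Where FOSL1 was called, its median fold was 6.85 at late and 6.41 at sustained regions. FOSL1 was measured in vehicle alone, so its presence at 6 h of TNFα was not tested.

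The other readouts varied with RELA fold among the late regions. When the 641 regions were ordered by RELA fold, FOSL1 in vehicle was found at 36.3% of the top 215 (fold 5.56 to 13.4), 50.2% of the middle 213 and 66.2% of the bottom 213 (fold 1.80 to 4.59). H3K27ac in vehicle followed the same order, at 40.5%, 65.3% and 71.4%. The κB pattern ran the other way, from 51.6% at the top through 34.7% to 16.9% at the bottom, as did RELB at 6 h of TWEAK, from 27.9% to 8.45%. The AP-1 element changed less, at 35.3%, 35.2% and 27.7%. These shares are a description, since fold enters the rule through the calling of a peak.

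**Figure D2:**
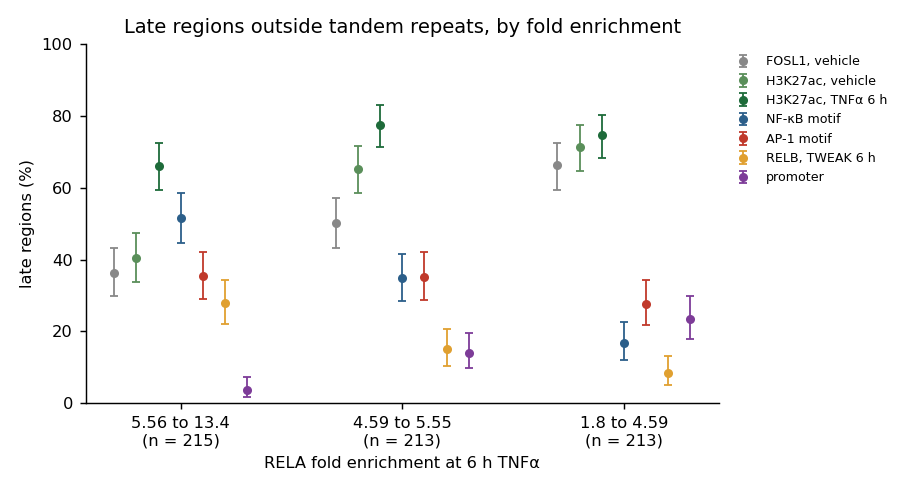
Points give the percent of late regions outside tandem repeats with each feature, in 3 groups ordered by RELA fold enrichment over input at 6 h of TNFα, and bars are exact 95% intervals. FOSL1 and H3K27ac in vehicle rise from the strongest to the weakest group (36.3% to 66.2% and 40.5% to 71.4%), while the NF-κB motif falls from 51.6% to 16.9%.

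H3K27ac was present at most late regions outside tandem repeats, and more of them carried it at 6 h of TNFα than before. A peak lay within 500 bp of the summit at 378 of 641 regions in vehicle (59.0%, 55.1 to 62.8), 356 at 30 min of TNFα (55.5%) and 466 at 6 h (72.7%, 69.1 to 76.1). Among all RELA regions of 6 h outside tandem repeats the shares were 69.1%, 77.5% and 82.3%. Sustained regions were marked more often in vehicle (70.1%; Fisher's exact test, odds ratio 0.613, 0.511 to 0.736, adjusted p = 1.81e-07) and at 6 h (84.6%; odds ratio 0.483, 0.392 to 0.597, adjusted p = 3.34e-11). From vehicle to 6 h, 94 late regions gained and 6 lost a peak (exact McNemar test, two-sided, p = 2.01e-21), a ratio of 15.7 (6.93 to 43.8). The ratio was 2.18 where the H3K27ac peak had to overlap the RELA region itself, 3.06 over all late regions and 30.3 with H3K27ac peaks of q at most 0.001, and each of these passed the exact McNemar test.

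At 30 min the same regions had gone the other way. From vehicle to 30 min of TNFα, 25 gained and 47 lost a peak, a ratio of 0.532 (0.314 to 0.882, exact McNemar test, two-sided, p = 0.0128). Among regions with a fold of at least 5 the ratio was 0.571 and did not pass (p = 0.0961 by the exact test). The lists also differed away from RELA: FOSL1 regions in no RELA or RELB list showed 817 gains and 6300 losses at 30 min (ratio 0.13) and 1841 gains and 2011 losses at 6 h (ratio 0.915). Sustained regions gained 346 and lost 25 at 30 min (ratio 13.8) and gained 380 and lost 9 at 6 h (ratio 42.2). The gained-to-lost ratio of late regions differed from that of sustained regions at 30 min (Fisher's exact test, odds ratio 0.039, 0.0194 to 0.0758, p = 6.07e-27), and at 6 h the difference did not pass the threshold (odds ratio 0.372, 0.115 to 1.30, p = 0.0946). It also differed from that of the FOSL1 regions at both times (odds ratio 4.10, Fisher's exact test, p = 2.49e-07 at 30 min, and 17.1, p = 6.31e-23 at 6 h). Each of these sets was chosen by its RELA calls at 30 min and 6 h of TNFα, so these contrasts are tied to that choice.

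The times were also compared among regions with no H3K27ac peak in vehicle. Of 263 such late regions, 25 were marked at 30 min (9.51%, 6.25 to 13.7) and 94 at 6 h (35.7%, 29.9 to 41.9). Of 763 such sustained regions, 346 were marked at 30 min (45.3%, 41.8 to 49.0) and 380 at 6 h (49.8%, 46.2 to 53.4). Of 2218 such transient regions, 638 were marked at 30 min (28.8%, 26.9 to 30.7) and 309 at 6 h (13.9%, 12.5 to 15.4). Of 14717 such FOSL1 regions, 5.55% and 12.5% were marked. The share was thus higher at 6 h than at 30 min at late regions and lower at 6 h than at 30 min at transient regions, while at sustained regions the intervals of both times overlapped. The sets were chosen by RELA calls at the same times, and the shares are given as a description.

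**Figure D3:**
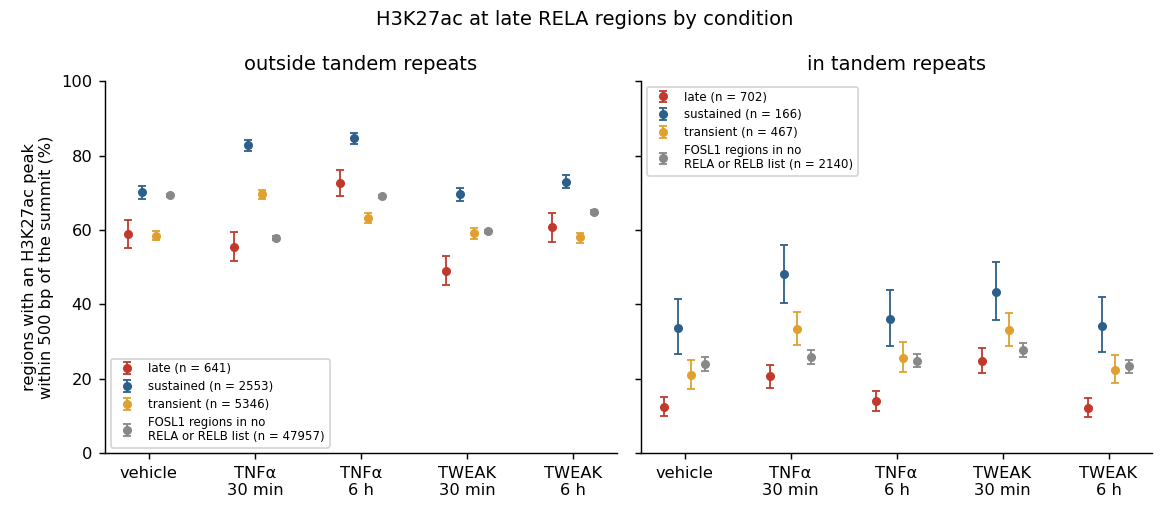
Points give the percent of regions with an H3K27ac peak within 500 bp of the summit in each of the 5 conditions, outside (left) and in (right) tandem repeats, and bars are exact 95% intervals. Late regions outside tandem repeats stand at 59.0% in vehicle and, under TNFα, at 55.5% (30 min) and 72.7% (6 h), while transient regions are highest at 30 min (69.6%).

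By pattern over vehicle and both TNFα times, 330 of the 641 late regions were marked at all 3 (51.5%), 165 at none (25.7%), 73 at 6 h alone (11.4%) and 42 in vehicle and at 6 h but not at 30 min. For the first 3 of these patterns, sustained regions outside tandem repeats stood at 68.9%, 11.8% and 4.54%, and transient regions at 56.9%, 28.2% and 1.33%. FOSL1 in vehicle followed the pattern, at 255 of the 330 late regions marked throughout (77.3%), 14 of the 73 marked at 6 h alone (19.2%) and 21 of the 165 never marked (12.7%). The order was the same at sustained regions (71.3%, 16.4% and 13.6%) and at transient regions (68.8%, 19.7% and 4.04%). The κB pattern was in 22.1%, 46.6% and 52.7% of these groups of late regions and the AP-1 element in 32.7%, 39.7% and 26.7%. Of the 73 regions marked at 6 h alone, 21 also had H3K27ac at 6 h of TWEAK and 2 at 30 min of TWEAK, 42 were intergenic and 28 intronic, and their median distance to a protein-coding start site was 48.0 kb.

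The 5 strongest of these 73 included the PICALM and ACHE regions. An intronic region 15303 bp from a start site of KCTD16, an auxiliary protein of GABA-B receptors (chr5:144189819-144190065, fold 9.37), had H3K27ac at 6 h of TNFα (3.59) and of TWEAK (3.01), FOSL1 in vehicle (fold 5.59) and RELB at 6 h of TWEAK (fold 7.60). An intronic region of RGS6, a regulator of G protein signaling (chr14:72643368-72643526, fold 8.98), had H3K27ac at 6 h of TNFα (3.26) and of TWEAK (3.03), and no FOSL1 or RELB. Only KCTD16 of the 5 carried FOSL1 in vehicle.

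H3K27ac at the late regions was also compared under TWEAK. It was found at 49.1% at 30 min and 60.8% at 6 h of TWEAK, where all RELA regions of 6 h outside tandem repeats stood at 66.8% and 71.3%. Against vehicle, late regions gained 6 and lost 69 peaks at 30 min of TWEAK (p = 1.16e-14 by the exact McNemar test, two-sided). After 6 h there were 35 gains and 23 losses, which did not pass the threshold (p = 0.148 by the same exact test). The FOSL1 regions showed 841 gains and 5446 losses at 30 min (ratio 0.154) and 1027 gains and 3173 losses at 6 h (ratio 0.324). All these comparisons share the vehicle list.

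RELB at 6 h of TWEAK was the RELA or RELB readout most often found at late regions. It overlapped 110 of 641 outside tandem repeats (17.2%, 14.3 to 20.3) with a median RELB fold of 6.58, against 820 of 2553 sustained regions (32.1%) and 35.9% of all RELA regions of 6 h (Fisher's exact test, odds ratio 0.438, 0.348 to 0.548, adjusted p = 3.63e-14). Within quintiles of RELA fold the odds ratio was 0.841, which no longer passed the threshold (Mantel-Haenszel test). At transient regions RELB at 6 h of TWEAK was found at 127 of 5346 (2.38%), so late regions were higher by an odds ratio of 8.51 (6.43 to 11.2, Fisher's exact test, adjusted p = 8.89e-46). Late regions were chosen for a RELA call at 6 h of TNFα and transient regions for none. This contrast in another 6 h list is therefore tied to that choice, and no conclusion is drawn from its test. The 110 shared regions had a κB match in 49.1% and an AP-1 element in 38.2%, against 31.5% and 31.6% of the other 531, and 19 of them gained and 0 lost H3K27ac from vehicle to 6 h of TNFα, beside 75 gained and 6 lost among the other 531.

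Outside tandem repeats the other RELA and RELB lists held few late regions. RELB at 6 h of TNFα, which shares cells, ligand and time with the late RELA list, overlapped 18 (2.81%), against 4.74% of sustained regions and 10.0% of all RELA regions of 6 h (Fisher's exact test, odds ratio 0.581, adjusted p = 0.0380). RELA at 30 min of TWEAK overlapped 4 (0.624%), against 12.7% of sustained regions and 17.7% of all (odds ratio 0.0432, 0.0117 to 0.112, Fisher's exact test, adjusted p = 2.98e-27). Late regions were chosen for no RELA call at 30 min of TNFα and sustained regions for such a call. This test is therefore tied to the rule, and no conclusion is drawn from it. The 17.7% also counts regions called in a vehicle list, which stood at 68.7% and which the rule leaves out. RELA at 6 h of TWEAK overlapped 13 (2.03%), against 3.64% and 10.8% (odds ratio 0.548, Fisher's exact test, adjusted p = 0.0528). The odds ratios for RELB at 6 h of TNFα and RELA at 6 h of TWEAK turned to 1.17 and 1.14 within quintiles of RELA fold. Over all late regions, repeats included, these lists overlapped 142 and 154, beside 168 for RELB at 6 h of TWEAK, and their odds ratios against all sustained regions turned to 1.84 and 2.5 (Fisher's exact test, p = 5.11e-07 and 1.50e-13). RELB at 30 min of TNFα overlapped 4 late regions (0.624%), against 0.509% of sustained regions and 3.12% of all. RELB at 30 min of TWEAK overlapped 3 (0.468%), against 0.0392% of sustained regions and 2.49% of all. The shares of all also count regions called in a vehicle list, which stood at 21.0% and 18.8% and which the rule leaves out. Of all late regions outside tandem repeats, 512 of 641 (79.9%) were in no other RELA or RELB list. The same count was not made over sustained regions or all RELA regions of 6 h, so the 79.9% cannot be called particular to late regions. RELB at 6 h of TWEAK alone held 32.1% of sustained regions and 35.9% of all. The latter also counts regions called in a vehicle list, which stood at 82.7%.

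**Figure D4:**
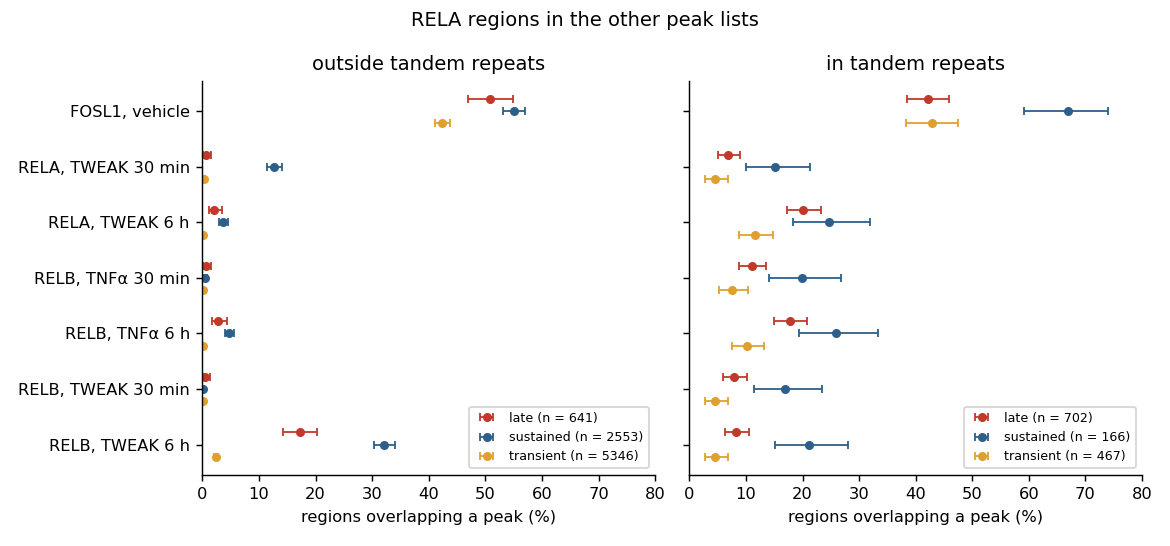
Points give the percent of late, sustained and transient regions that overlap a peak of each other list by 1 bp or more, outside (left) and in (right) tandem repeats, and bars are exact 95% intervals. Outside tandem repeats late regions reach 50.9% for FOSL1 and 17.2% for RELB at 6 h of TWEAK and stay under 3% in the other lists.

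Late regions outside tandem repeats were mostly distal. A protein-coding start site lay within 1 kb of 88 of 641 summits (13.7%), against 22.9% of sustained regions and 20.6% of all RELA regions of 6 h (Fisher's exact test, odds ratio 0.537, 0.416 to 0.687, adjusted p = 2.50e-07), 229 were intronic, 11 exonic and 313 intergenic, and the median distance to a start site was 30.7 kb against 15.2 kb. The share at promoters was 3.72% in the 215 late regions of highest fold and 23.5% in the 213 of lowest fold. The 5 strongest promoter regions lay at BCL2L2, an anti-apoptotic BCL2 family member (fold 6.60), ESCO2, a cohesin acetyltransferase (6.54), TNS1, a focal adhesion protein (6.10), PTX3, a secreted pentraxin of inflammation (6.09), and PRLR, the prolactin receptor (6.00). The PTX3 and PRLR regions held a κB match and no H3K27ac in any list. The TNS1 region held a κB match with H3K27ac in vehicle (3.02) and a higher fold at 6 h of TNFα (4.07) and of TWEAK (4.05). The BCL2L2 region held an AP-1 element with H3K27ac at 6 h of TNFα alone among the 5 conditions (3.22). The ESCO2 region held H3K27ac in all 5 conditions (2.55 to 3.08) and FOSL1 (fold 4.11).

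The share of listed genes with a late region nearby was near that over all genes. The lists hold pathway, AP-1 and interferon genes beside NF-κB targets. Of 84 genes in 7 lists, 4 had a late region outside tandem repeats within 50 kb of a start site (4.76%), beside 698 of all 19618 protein-coding genes (3.56%), and 79 had a RELA region of 30 min TNFα there, beside 41.7% of all protein-coding genes. The share over all genes is so low that short lists can hold none, and none lay near the 10 NF-κB subunits and inhibitors, 15 feedback and signaling genes, 8 AP-1 genes, 6 survival genes or 12 interferon genes listed. The 4 were CSF1, CSF2 and CSF3 of 19 chemokines and cytokines and ICAM1 of 14 adhesion and matrix genes, and all 4 also had a RELA region of 30 min within 50 kb. Of the 698 genes with a late region, 250 had none of 30 min within that distance.

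The late regions at the 3 colony-stimulating factor genes, which encode hematopoietic growth factors, all carried FOSL1 in vehicle and H3K27ac in vehicle and at 6 h of TNFα. The CSF2 region (chr5:132073625-132073733, fold 5.05) lay at its promoter, 117 bp from the start site, with FOSL1 (fold 7.80), neither motif and 1 RELA region of 30 min within 50 kb. The CSF3 region (chr17:40021515-40021653, fold 4.31) lay 6105 bp from a CSF3 start site and held an AP-1 element and FOSL1 (fold 8.61). Its summit was in an intron of a protein-coding gene, and which gene was not recorded. The CSF1 region (chr1:109893116-109893267, fold 5.20) lay 17038 bp from a CSF1 start site and held a κB match and FOSL1 (fold 3.92), with a peak of an excluding list 163 bp off. The ICAM1 region (chr19:10265404-10265546, fold 6.34), 5606 bp from a start site of this endothelial and epithelial adhesion molecule, held a κB match and neither FOSL1 nor H3K27ac. The study's own lists hold TNFα-specific genes and genes common to both ligands, with some TWEAK-specific genes among the latter. Genes of these lists, of which 753 of 936 matched the annotation by name, had a start site within 50 kb of 58 late regions outside tandem repeats (9.05%, 6.94 to 11.5), where all RELA regions of 6 h stood at 12.1%. These lists come from the same study and carry no test here.

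In tandem repeats the late regions were of another kind. The 702 regions were 52.3% of late regions (49.6 to 55.0), near the 49.7% of all 7266 RELA regions of 6 h. The share was 166 of 2719 sustained regions (6.11%) and 2741 of 3204 regions called in a vehicle list (85.5%), and 4.21% of windows on the genome grid reached the same self-match. The best shift was 168 to 174 bp in 229 late regions and 336 to 348 bp in 401, together 89.7%, which cover the lengths of 1 and 2 units of alpha satellite, the repeat of human centromeres. Of the 702, 682 were intergenic (97.2%), at a median of 1584 kb from a protein-coding start site, and the median gap to a peak of an excluding list was 4.14 kb. Whether reads were placed correctly within these near-identical copies was not tested.

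The 5 strongest of them had no FOSL1 peak. They lay on chromosome X (chrX:62247119-62247247, fold 8.62, shift 171 bp), chromosome 3 (chr3:90538728-90538866, fold 8.26, 340 bp), chromosome 10 (chr10:40183170-40183295, fold 7.77, 340 bp), and chromosome 4 (chr4:49657528-49657670, fold 7.65, 365 bp, and chr4:6511800-6511930, in an intron of PPP2R2C, fold 7.54, 285 bp). RELA after TWEAK was called at 4 of them, the regions on X (fold 8.34 at 6 h), 3 (6.83 at 30 min) and both on 4 (6.29 and 7.55 at 6 h).

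Across the late regions in tandem repeats, 5 held a κB match (0.712%) and 4 an AP-1 element (0.570%). FOSL1 in vehicle overlapped 296 (42.2%), against 80.1% of all RELA regions of 6 h in tandem repeats, with a median fold of 3.96. RELA overlapped 48 (6.84%) at 30 min and 141 (20.1%) at 6 h of TWEAK, against 48.5% and 63.6% of all. RELB overlapped 77 (11%) at 30 min and 124 (17.7%) at 6 h of TNFα, against 58.2% and 64.4%, and 55 (7.83%) at 30 min and 58 (8.26%) at 6 h of TWEAK, against 51.5% and 54.2%. Of all RELA regions of 6 h in tandem repeats, 2741 of 3609 were called in a vehicle list, which the rule leaves out. At sustained regions in tandem repeats FOSL1 stood at 66.9%, RELA at 6 h of TWEAK at 24.7%, and RELB at 6 h of TNFα at 25.9% and of TWEAK at 21.1%. At transient regions there the shares were 42.8%, 11.6%, 10.1% and 4.5%. In all, 302 late regions in tandem repeats (43.0%) were in at least 1 of these 6 lists, where 129 late regions outside tandem repeats (20.1%) were. This count was not made over sustained regions or all RELA regions of 6 h, so neither share can be called particular to late regions. At the late regions in tandem repeats H3K27ac lay at 12.4% in vehicle and, under TNFα, at 20.7% (30 min) and 14.0% (6 h), against 45.2%, 56.0% and 48.7% of all RELA regions of 6 h in tandem repeats. Sustained regions in tandem repeats stood at 33.7%, 48.2% and 36.1%, and transient regions there at 21.0%, 33.4% and 25.7%. From vehicle the late regions in tandem repeats gained 79 and lost 21 H3K27ac peaks at 30 min (ratio 3.76) and gained 53 and lost 42 at 6 h (ratio 1.26, exact McNemar test, two-sided, p = 0.305), an order opposite to that outside tandem repeats. Other sets in tandem repeats also gained at 30 min of TNFα, with ratios of 5.0 at sustained regions, 6.8 at transient regions and 3.01 at 6 h regions called in a vehicle list. At 30 min of TWEAK the late regions in tandem repeats gained 106 and lost 19 (ratio 5.58, exact McNemar test, two-sided, p = 7.70e-16). Pooling both parts would therefore hide it: over all 1343 late regions the ratio at 30 min was 1.53, above 1, where it was 0.532 outside tandem repeats.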

How the data were processed

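ChIP-seq peak lists of 48 samples in 16 conditions were analysed. Per the labels and methods, the authors aligned to hg38 (Bowtie2 2.5.0) and called peaks with MACS2 against input, narrow for RELA, RELB and FOSL1 (11 lists) and broad for H3K27ac (5 lists). The MACS2 version, a repeat filter and the treatment of reads with several matches are not given in the sources used here. Fold enrichment in the deposited lists is a ratio of ChIP to input signal, and the deposited −log10 q gives the caller's significance. In the lists 16 score columns and 16 columns of −log10 p were not used. Depth is unknown, so no interval covers it.

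Members and lists were chosen with earlier results of these data known, and the tandem-repeat split follows that work. Overlaps of at least 1 bp, H3K27ac within 500 bp of a summit, self-matches, motifs and GENCODE 44 protein-coding start sites were computed in Python 3.11.15 (pysam 0.24.0, statsmodels 0.14.6, scipy 1.17.1, pandas 2.3.3, numpy 2.4.6). The genome was hg38, the build of the files. Functions were tested on simulated data. Late and sustained regions outside tandem repeats were compared by 10 two-sided Fisher's exact tests (Benjamini-Hochberg adjusted). Late and transient regions were compared by the same 10 tests, adjusted separately. Gain and loss of H3K27ac were compared by exact McNemar tests, and shares were given exact (Clopper-Pearson) 95% intervals. Regions are not replicates. The regions named were the 10 of highest fold outside tandem repeats, the 5 highest in them, and the 5 highest outside them at promoters, with H3K27ac at 6 h of TNFα and in neither vehicle nor 30 min, and with RELB at 6 h, plus the listed genes with a late region within 50 kb. Of these, 2 regions are not reported here. Of the 10 motifs, 8 were added after the files were seen. Alternatives changed the rule, the windows, the repeat limit, the fold minimum and the comparison regions.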

Additional observations from a re-analysis of the deposited data

Results flagged for a closer look

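The gained-to-lost ratio of H3K27ac from vehicle to 30 min of TNFα differed between late and sustained regions outside tandem repeats, by an odds ratio of 0.039 (0.0194 to 0.0758, Fisher's exact test, two-sided, p = 6.07e-27). Late regions gained 25 and lost 47 peaks, and sustained regions gained 346 and lost 25. Sustained regions were chosen for a RELA call at 30 min of TNFα and late regions for none. The contrast is therefore tied to that choice, and no conclusion is drawn from its test. FOSL1 regions in no RELA or RELB list showed 817 gains and 6300 losses over the same contrast, so the 30 min list was sparser there too. The part of that difference between lists in the result was not tested.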

How the results depend on the processing

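The number of late regions was 1343. It was 504 with a fold of at least 5, 145 among the 3000 strongest peaks of 6 h and 2139 when the 30 min list alone excluded, and a gap of 500 bp, the summit rule and a stricter q stayed within 1.5 times. The tandem-repeat share of late regions (52.3%) was 47.4% at a self-match limit of 0.5 and 34.9% with a fold of at least 5. The share near genes of the study's list (9.05%) was 4.21% at 10 kb, 11.7% at 100 kb, 4.47% over all late regions and 0.285% in tandem repeats.

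Here an odds ratio passes at an unadjusted p under 0.05. That for FOSL1 (0.846) passed over all regions (0.685), in tandem repeats (0.362), at a limit of 0.5 (0.824), with a fold of at least 5 (0.583) and within fold quintiles (0.692), and turned to 1.02 with summits within 100 bp. The AP-1 odds ratio (1.78) turned to 0.739 over all regions and 0.131 in tandem repeats, where 4 late regions held the element. It kept its direction and its side of the threshold in the other alternatives, among them regions without FOSL1 and regions away from promoters, which were added after seeing the data. RELB at 6 h of TNFα (0.581) no longer passed at a limit of 0.5 (0.790) and with a fold of at least 5 (0.559), and turned to 1.84 over all regions and 1.17 within fold quintiles. RELB at 6 h of TWEAK (0.438) no longer passed within fold quintiles (0.841). RELA at 6 h of TWEAK (0.548), which passed before adjustment (p = 0.0475, Fisher's exact test) and not after it, did not pass in tandem repeats (0.767) or at a limit of 0.5 (0.867), and turned to 2.5 over all regions and 1.14 within fold quintiles.

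With transient in place of sustained regions, also added after seeing the data, the odds ratios were 1.41 for FOSL1, 1.02 for H3K27ac in vehicle and 1.55 at 6 h of TNFα, 77.1 for RELB at 6 h of TNFα, 8.51 for RELB at 6 h of TWEAK, 3.04 and 18.4 for RELA at 30 min and 6 h of TWEAK, and 0.873 for the NF-κB motif. Both sets were chosen by their RELA calls at 30 min and 6 h of TNFα, so the odds ratios for RELA and RELB lists are tied to that choice. The gain of H3K27ac at 6 h (15.7 gained per lost) was 1.26 in tandem repeats and did not pass the threshold there, and it was 2.18 where the H3K27ac peak had to overlap the region. The ratio at 30 min (0.532) turned to 1.53 over all regions and 3.76 in tandem repeats, and with a fold of at least 5 it was 0.571 and no longer past the threshold. The causes were not tested.

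Of 124 alternatives, 86 kept direction and side of the threshold or moved little. In 16 the direction turned, 8 no longer passed the threshold, 5 passed it where the main setting did not, and 9 counts or shares without a test moved further. No paired analysis was possible because each condition holds 1 list of merged replicates, which also leaves no replicate to leave out. Depth and reads per peak are unknown, so absence from the 30 min list does not show that RELA signal was absent there, and the reads behind a region of low fold are not known.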
